A study of Mus musculus with 4 samples.

Results

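The Peg10, Sgce and Asb4 cluster is a run of imprinted genes on mouse chromosome 6. It was examined here as 10 genes of the 48795 in the deposited table: Calcr, Tfpi2, Casd1, Sgce, Peg10, Ppp1r9a, Pon1, Pon3, Pon2 and Asb4, in order of position. They were taken by symbol, and the run was chosen by the normalized read counts of all 4 libraries, in which Asb4 was higher and Sgce lower without Ctcf. The difference between genotypes therefore selected them, and its values for these genes are a description with no test. The genes span 1747343 bases, chromosome 6 from 3685680 to 5433022 in mm10.

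RNA was sequenced from the telencephalon, a part of the embryonic forebrain, of C57BL/6 mice at embryonic day 14. There were 2 control libraries from mice with floxed Ctcf, a Ctcf gene flanked by recombination sites. The 2 Ctcf-null libraries came from mice with floxed Ctcf and NestinCre, a Cre recombinase driven by Nestin sequences and active in neural progenitors and their descendants. All 4 libraries thus carry the floxed gene, and none is labelled as carrying Cre alone. Blood, vessel, meningeal and microglial cells are largely outside the reach of NestinCre. The submitters describe the libraries as 2 pairs, but nothing in the labels says what a pair shares or that libraries came from separate embryos. Variation that is only technical may therefore be what the p-values are set against.

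Imprinted genes are read mainly from the copy inherited from a single parent, and CTCF, a DNA-binding protein that anchors chromatin loops, acts at several imprinted regions. In this cluster Peg10 and Sgce are read from the paternal copy and start head to head at a region that is methylated on the maternal copy. Asb4 leans to the maternal copy, as Calcr does in brain, and some of the other genes do so mainly in placenta. The deposited values do not separate the parental copies.

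Library depth was 25519331 to 43812558 reads. Ctcf, the targeted gene, was at 437 and 1133 normalized read counts in controls 1 and 2 and at 38.9 and 62.0 in Ctcf-null 1 and 2. The pairs differed strongly from each other, with 16271 of 22158 tested genes (73.4%) different between pair 2 and pair 1 by limma with genotype in the fit. Telencephalic markers were present, with a summed level of 4415 to 20989.5 normalized counts over 8 genes. The 10 most abundant genes took 21.9% to 26.03% of reads in pair 1 and 8.37% to 8.82% in pair 2. All values below are normalized read counts, not divided by gene length unless stated. Fold changes are from limma on log2(value + 1), Ctcf-null against control with the pair as a block, and understate the change of low genes.

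In the Ctcf-null telencephalon Asb4 was 2.89-fold higher, Peg10 1.81-fold higher and Pon2 1.29-fold higher than in controls, in 2 libraries per genotype. Ppp1r9a was 1.33-fold lower and Sgce 1.24-fold lower. Casd1, Pon3, Pon1, Tfpi2 and Calcr were within 1.40-fold of controls, and 4 of these 5 had opposite signs in the pairs. All 10 members passed the filter on low counts. In the block fit 3 members passed an adjusted p of 0.05 as higher and 2 as lower, where 13.7% of all tested genes passed (3.67% higher and 10.1% lower). Since this contrast chose the genes, nothing is read from that share. The median log2 fold change was 0.18 over the members and -0.07 over all tested genes.

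**Figure D1:**
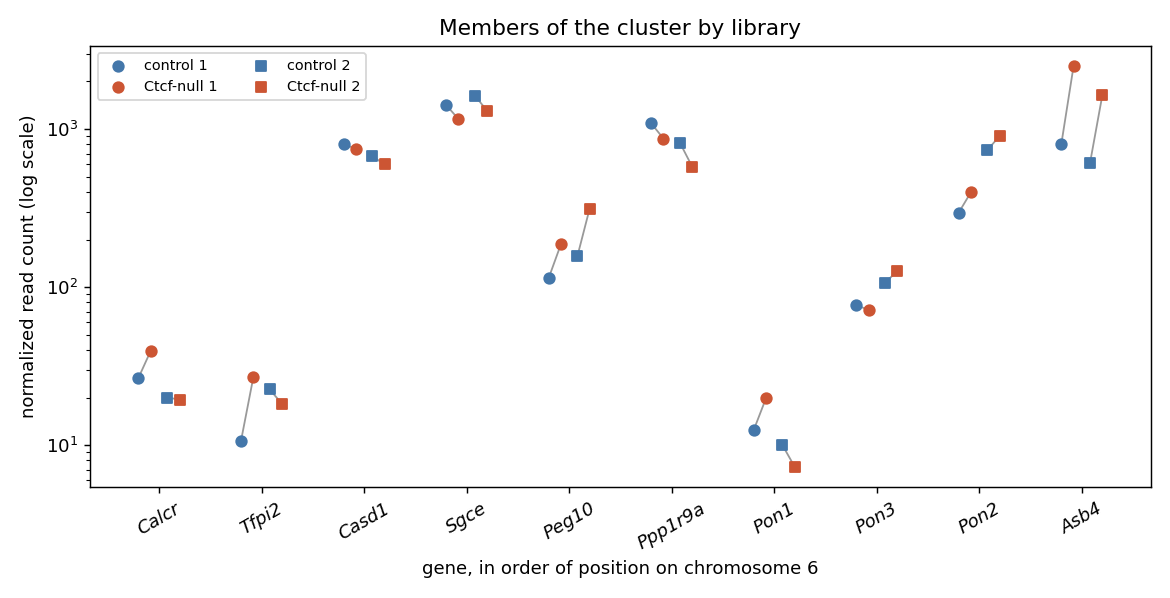
Normalized read counts (log scale) of the 10 genes in order of position, with controls in blue and Ctcf-null libraries in red. Circles are pair 1, squares are pair 2, and grey lines join the libraries of a pair. The Asb4 lines climb from 801 to 2505 and from 609 to 1633, and those of Sgce slope down in both pairs.

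Sgce and Peg10 lie back to back, with 98 bases between their annotated ends. Sgce (ENSMUSG00000004631.15, minus strand, 4674350 to 4747207) encodes epsilon-sarcoglycan, a membrane protein of the dystrophin-associated complex. Its loss from the paternal copy causes myoclonus-dystonia in people. Sgce measured 1420 and 1629 normalized counts in controls 1 and 2, against 1158 and 1305 in their Ctcf-null counterparts. Both controls lay above both Ctcf-null libraries. The log2 fold change was -0.31 (SE 0.08), and the pairs gave -0.29 and -0.32. Counting error was small, since 1074 to 1637 reads stood behind each value. The ratio of Ctcf-null to control was 0.815 in pair 1, with an exact 95% interval of 0.761 to 0.874, and 0.801 (0.738 to 0.869) in pair 2. These intervals cover counting error only. Leaving out 1 library without the block gave log2 fold changes of -0.41 to -0.21.

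Peg10 (ENSMUSG00000092035.8, plus strand, 4747306 to 4760517) derives from a retrotransposon and encodes Gag-like and Pol-like proteins. It is needed for placental development. Peg10 measured 114 and 156 normalized counts in controls 1 and 2, against 187 and 313 in their Ctcf-null counterparts, so both Ctcf-null libraries were above both controls. The log2 fold change was 0.85 (SE 0.15), with 0.71 and 1.00 in the pairs. The ratio was 1.64 (counting interval 1.32 to 2.04) in pair 1 and 2.00 (1.61 to 2.502) in pair 2, from 125 to 264 reads per library. Leaving out 1 library without the block gave log2 fold changes of 0.48 (without Ctcf-null 2) to 1.23 (without Ctcf-null 1). The genes that share a start region thus differed in opposite directions between genotypes. Peg10 counts per Sgce count were 0.0802 and 0.0960 in controls, against 0.161 and 0.240 without Ctcf. This ratio was 2.01 times as high in the Ctcf-null library of pair 1 and 2.502 times as high in that of pair 2. It is free of the scaling between libraries, because both counts come from the same library.

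Asb4 (ENSMUSG00000042607.15, plus strand, 5383386 to 5433022) closes the cluster. It encodes an ankyrin repeat protein whose SOCS box recruits a cullin-RING ubiquitin ligase, and it is known from hypothalamic neurons and from blood vessel development. Asb4 measured 801 and 609 normalized counts in controls 1 and 2, against 2505 and 1633 in their Ctcf-null counterparts. The groups did not overlap, and the lower Ctcf-null library was above the higher control. The log2 fold change was 1.53 (SE 0.08), with 1.64 and 1.42 in the pairs. By absolute size it ranked 212 among the 22158 tested genes, while Peg10 ranked 1214, Ppp1r9a 5106, Pon2 6009 and Sgce 7392. The Asb4 ratios within pairs were 3.13 (counting interval 2.90 to 3.37) and 2.68 (2.41 to 2.98), and these intervals overlapped. Leaving out any single library without the block gave log2 fold changes of 1.22 to 1.84.

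RefSeq (GRCm38.p6) gives 2 starts for Asb4, and the 250 bases before each are shown because this gene differed most. The 250 bases before the inner of 2 Ppp1r9a starts are set beside them as a CG-rich example, from a member that was lower. Capitals mark CG dinucleotides, the sites of DNA methylation.
Asb4, outer start, chr6:5383136-5383385, plus strand: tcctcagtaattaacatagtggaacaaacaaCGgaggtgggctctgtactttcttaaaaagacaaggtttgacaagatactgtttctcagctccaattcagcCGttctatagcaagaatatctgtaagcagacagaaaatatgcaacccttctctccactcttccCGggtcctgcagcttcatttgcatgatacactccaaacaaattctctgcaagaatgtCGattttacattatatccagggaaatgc
Asb4, inner start, chr6:5390160-5390409, plus strand: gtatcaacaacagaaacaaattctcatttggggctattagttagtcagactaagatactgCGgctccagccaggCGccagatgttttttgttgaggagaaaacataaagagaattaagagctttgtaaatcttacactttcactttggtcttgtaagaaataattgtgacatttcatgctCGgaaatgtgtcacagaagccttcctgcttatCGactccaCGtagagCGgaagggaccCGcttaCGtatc
Ppp1r9a, inner start, chr6:4903061-4903310, plus strand: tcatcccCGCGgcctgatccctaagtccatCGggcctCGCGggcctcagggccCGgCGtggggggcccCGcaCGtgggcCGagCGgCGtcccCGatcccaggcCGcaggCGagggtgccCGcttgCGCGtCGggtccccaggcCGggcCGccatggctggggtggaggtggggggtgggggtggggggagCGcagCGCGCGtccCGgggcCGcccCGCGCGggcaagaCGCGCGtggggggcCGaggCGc
The Asb4 windows hold 4 and 8 CG dinucleotides and are 40.8% and 41.6% G or C, whereas the inner Ppp1r9a window holds 35 and is 81.2% G or C. Among 32851 RefSeq windows of the same length the median was 6 CG dinucleotides and 52.4% G or C. The inner Ppp1r9a count exceeded 97.0% of these windows, and the Asb4 counts 37.8% and 57.0%. The outer Ppp1r9a window, not shown, holds 8 CG dinucleotides, as many as the inner Asb4 window, and is 65.2% G or C. The window of Pon2, a member that was higher, holds 24 and exceeded 88.0%. Ppp1r9a was the only lower member with windows, and its windows were unlike each other. The comparison therefore cannot say whether CG content divides the higher from the lower members. A loose core of the CTCF motif, searched on both strands, was in 679 windows (2.07%) and in 0 of the 14 windows matched to 8 of the 10 members. This says only that those letters are not in these windows. No window was listed for Sgce or Peg10.

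Ppp1r9a (ENSMUSG00000032827.15, plus strand, 4902917 to 5165661) encodes neurabin, an actin-binding protein that brings protein phosphatase 1 to dendritic spines. It measured 1086 and 819 normalized counts in controls 1 and 2, against 870 and 578 in their Ctcf-null counterparts. The groups overlapped, because Ctcf-null 1 was above control 2, but within each pair the Ctcf-null library was lower. The log2 fold change was -0.41 (SE 0.09), with -0.32 and -0.50 in the pairs. The ratios were 0.802 (counting interval 0.740 to 0.868) and 0.706 (0.626 to 0.796). Without the block the log2 fold change was -0.21 without control 1, -0.61 without control 2, -0.70 without Ctcf-null 1 and -0.12 without Ctcf-null 2. A transcript inside this gene on the same strand, Gm26814, was at 106, 17.5, 96.2 and 27.9 in controls 1 and 2 and Ctcf-null 1 and 2. Its log2 fold change was 0.25 and did not pass (limma adjusted p = 0.58). Reads of these overlapping genes may be shared, and strand could not separate them because both lie on the same strand. The labels name no strand information.

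The paraoxonases Pon1, Pon3 and Pon2 are paralogs in tandem on the minus strand between Ppp1r9a and Asb4. Paraoxonases hydrolyse lactones and protect lipids from oxidation, and Pon1 and Pon3 are known mainly as liver products carried on lipoproteins. Pon2 (ENSMUSG00000032667.17, 5264147 to 5298455), which acts inside cells of many tissues, was the abundant paralog here. It measured 296 and 738 normalized counts in controls 1 and 2, against 400 and 905 in their Ctcf-null counterparts. The groups overlapped because the pairs differed more than the genotypes, and within each pair the Ctcf-null library was higher. Its log2 fold change was 0.36 (SE 0.10), with 0.43 and 0.29 in the pairs. The ratios were 1.35 (counting interval 1.18 to 1.55) and 1.23 (1.10 to 1.37). Without the block its sign depended on the library left out, at -0.29 without control 1, -0.23 without Ctcf-null 2, 1.02 without control 2 and 0.95 without Ctcf-null 1.

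Pon3 (ENSMUSG00000029759.9, 5220852 to 5256286) measured 77.4 and 106 normalized counts in controls 1 and 2, against 71.4 and 126 in their Ctcf-null counterparts. Its pairs had opposite signs, -0.11 and 0.25 on the log2 scale, and both counting intervals included a ratio of 1. Pon1 (ENSMUSG00000002588.12, 5168090 to 5193946) was close to the floor of the assay, at 12.45 and 10.01 against 19.8 and 7.29 normalized counts. That is 14 and 8 reads in controls and 28 and 6 without Ctcf. The counting interval of its ratio ran from 0.809 to 3.27 in pair 1 and from 0.208 to 2.39 in pair 2. Both intervals included 1 and were wide, so a modest change in Pon1 could not be told from none at this depth.

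Casd1 (ENSMUSG00000015189.12, plus strand, 4600839 to 4643355) encodes the enzyme that adds acetyl groups to sialic acids. It neighbours Sgce at a distance of 30994 bases. Casd1 measured 799 and 674 normalized counts in controls 1 and 2, against 752 and 597 in their Ctcf-null counterparts. The groups overlapped, with log2 fold changes of -0.09 and -0.18 in the pairs. The ratios were 0.941 (counting interval 0.860 to 1.03) and 0.885 (0.781 to 1.002), so neither pair moved beyond counting error.

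At the proximal end Calcr and Tfpi2 were low. Calcr (ENSMUSG00000023964.15, minus strand, 3685680 to 3764714) encodes the calcitonin receptor, which with accessory RAMP proteins also forms amylin receptors. It measured 26.7 and 20.01 normalized counts in controls 1 and 2, against 39.6 and 19.4 in their Ctcf-null counterparts, from 16 to 56 reads. Tfpi2 (ENSMUSG00000029664.10, minus strand, 3962595 to 3988919) encodes a secreted inhibitor of serine proteases. It was at 10.7 and 22.5 against 26.9 and 18.2 normalized counts, from 12 to 38 reads. The Tfpi2 pairs had opposite signs, 1.26 and -0.29 on the log2 scale. Calcr had 0.55 and -0.04. The counting interval of the ratio was above 1 only for Tfpi2 in pair 1 (1.29 to 5.29) and included 1 for Tfpi2 in pair 2 and for Calcr in both pairs. The microRNA genes Mir489 and Mir653 inside Calcr were listed at 0 in all 4 libraries. This says only that no reads were counted for these short genes.

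**Figure D2:**
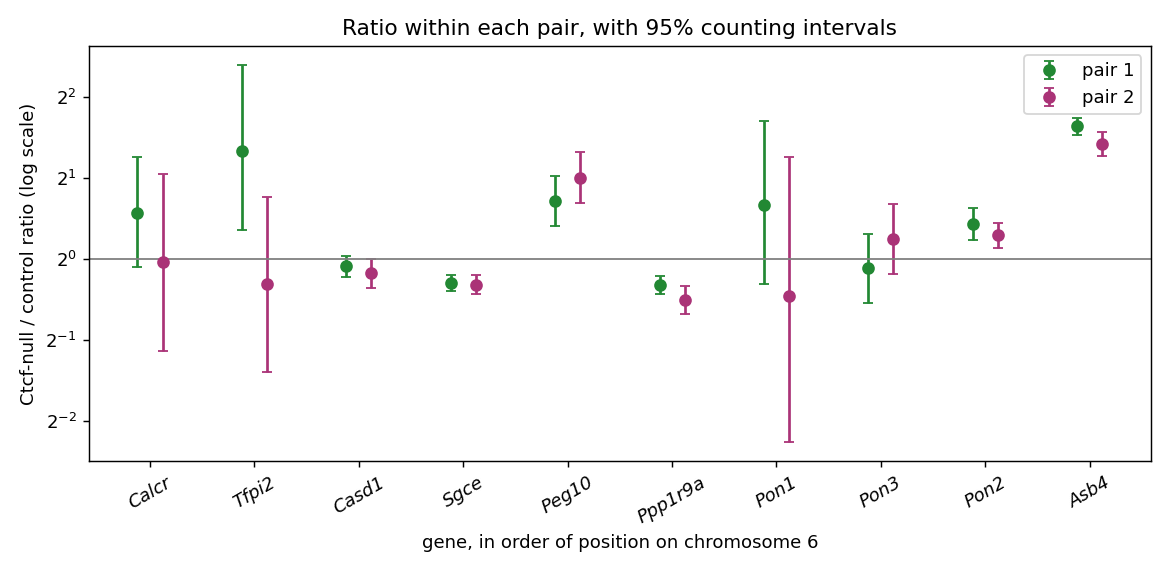
Ratio of Ctcf-null to control normalized counts within pair 1 (green) and pair 2 (purple), on a log axis with 95% exact counting intervals, and a line at a ratio of 1. Both intervals lie above 1 for Peg10, Pon2 and Asb4 and below 1 for Sgce and Ppp1r9a, while those of Calcr, Tfpi2 and Pon1 are wide.

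Read across the cluster, both pairs gave 1 sign for 6 of 10 members, as they did for 67.4% of all tested genes. For 5 members both counting intervals lay on the same side of 1. This share was not computed over all genes, and the contrast chose the members, so nothing is read from it. The groups did not overlap for 3 members, Asb4 and Peg10 above and Sgce below the controls. Over all tested genes the groups did not overlap for 14.1%, with 6.45% above and 7.64% below. In the limma fit without the pair block 0 of 22158 genes passed, and 170 had an unadjusted p under 0.05. The SE of Asb4 was then 0.42, that of Peg10 0.48 and that of Sgce 0.34. edgeR on recovered reads with the block called the same number of members, 3 higher and 2 lower, where it called 11.9% of genes (4.8% higher and 7.13% lower). With TMM scaling in limma 5 members passed, where 10.5% of genes did. DESeq2 with the block called Asb4 and Peg10 and no other member, where it called 4.89% of the 17003 genes given an adjusted p. It gave no adjusted p to Tfpi2 and Pon1. Of the calls over all genes 26.7% were higher in Ctcf-null libraries, against 40.2% in edgeR, 41.6% with TMM and 57.7% with upper-quartile scaling. Upper-quartile scaling moved the median over all genes from -0.07 to 0.04 and Sgce to -0.20, which was then not called. Relative to that median Sgce remained lower by a similar amount.

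The pair difference was not used to choose the genes and was tested in the same limma fit. The test was added after the data were seen. In limma 4 of the 10 members were higher in pair 2 and 3 were lower, close to the 73.4% of all genes that differed. In edgeR 8 members passed, of which 3 were higher, so the balance between directions depends on the tool. Pon2 was higher in pair 2 by 1.25 on the log2 scale (SE 0.10, limma adjusted p = 8.5e-10), in both genotypes. Peg10 was higher by 0.60 (SE 0.15), Pon3 by 0.63 (SE 0.19) and Sgce by 0.19 (SE 0.08). The Sgce difference was 0.05 in edgeR and did not pass (adjusted p = 0.56), whereas Calcr and Pon1 passed in edgeR as lower, at -0.88 and -1.03. Asb4 was lower in pair 2, at -0.51 (SE 0.08), as were Ppp1r9a at -0.50 and Casd1 at -0.29. For Pon2 the pair difference exceeded the genotype difference, and for Asb4 the reverse held.

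Levels of different genes were compared per kilobase of merged GENCODE exons. In controls Casd1 was at 198 and 167 normalized counts per kilobase and Asb4 at 204 and 155, and these genes did not differ beyond the spread between libraries. Sgce followed at 134 and 153. Pon2 at 40.4 and 101 and Ppp1r9a at 74.7 and 56.4 overlapped each other. Pon3 at 22.9 and 31.4 and Peg10 at 17.1 and 23.5 overlapped as well. Tfpi2 (6.11 and 12.9), Calcr (6.82 and 5.12) and Pon1 (4.30 and 3.45) were the lowest. In Ctcf-null libraries Asb4 was at 637 and 415 per kilobase, the highest member in both. Its place among all tested genes went from the 79.4 and 68.3 percentile in controls to the 91.5 and 83.0 percentile. Peg10 reached 28.0 and 47.0 per kilobase and Sgce 109 and 123. Peg10 was therefore still below Sgce, at 0.128 and 0.153 of its level per kilobase in controls, against 0.257 and 0.382 without Ctcf.

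**Figure D3:**
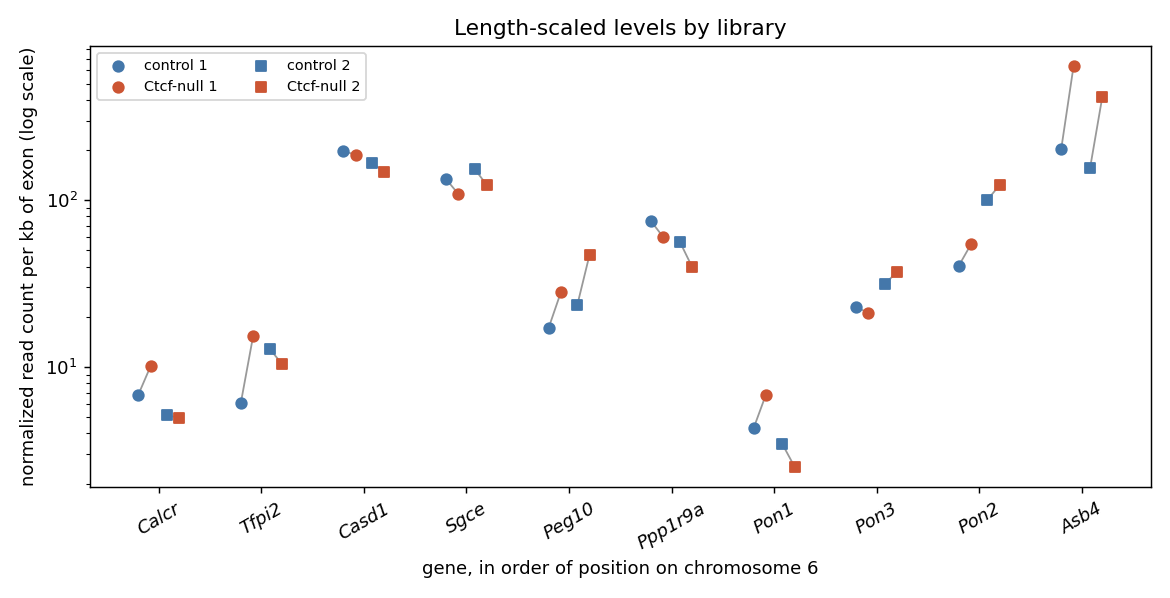
Normalized read counts per kilobase of exon (log scale) in each library, with the same colours and symbols for genotype and pair. In controls Asb4, Casd1 and Sgce share the top between 134 and 204, and in both Ctcf-null libraries Asb4 stands alone at 637 and 415.

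Genes around the cluster were tested as a list of 17, chosen with earlier results known and reaching farther on the distal side, to Asns, than on the proximal side. All were in the table and 16 were tested. Of these, 2 rose and 5 fell, where 3.67% of all tested genes were called higher and 10.1% lower. Their median log2 fold change was -0.14 against -0.07 for all tested genes. The 9 tested protein-coding genes among the non-members within 1 Mb of the cluster had 2 higher, 2 lower and a median of 0.04. Pdk4, the kinase that restrains pyruvate oxidation, lies on the opposite strand, and 50328 bases separate its annotated 3' end from the end of Asb4. It measured 16.01 and 30.02 normalized counts in controls 1 and 2, against 46.0 and 72.9 in their Ctcf-null counterparts. It rose by 1.36 on the log2 scale (SE 0.27, limma adjusted p = 0.0021), with 1.47 and 1.25 in the pairs. In DESeq2 with the block Pdk4 did not pass (adjusted p = 0.11).

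Slc25a13, the mitochondrial aspartate-glutamate carrier citrin, also rose, by 0.45 (SE 0.11, limma adjusted p = 0.0084). Its counts went from 326 and 415 to 482 and 525. Between Pdk4 and Slc25a13 lies Dync1i1, a neuronal intermediate chain of the dynein motor, which fell by 0.32 (SE 0.08, limma adjusted p = 0.0085), from 1281 and 1910 to 1037 and 1505. DESeq2 with the block called neither of them. Beyond the distal end of the cluster, Pdk4 and Slc25a13 thus rose while Dync1i1 between them fell. Gng11, a G protein gamma subunit between Tfpi2 and Bet1, fell by 0.40 (SE 0.12, limma adjusted p = 0.040). edgeR on recovered reads gave -0.32, which missed the threshold (adjusted p = 0.095). Without the block Gng11 was at 0.40 without control 2 and 0.56 without Ctcf-null 1.

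The collagen gene Col1a2, directly before Casd1, measured 427 and 957 normalized counts in controls 1 and 2, against 460 and 1109 in their Ctcf-null counterparts. It did not pass (log2 fold change 0.16, limma adjusted p = 0.29). Bet1, a vesicle fusion protein gene, was at 0.01, and Vps50 at 0.04, Hepacam2 at 0.40 and Samd9l at 0.03 on the proximal side. None of these passed. Gngt1 had 1 to 3 reads per library and was not tested. Farther out, Tac1, the substance P precursor gene, fell by 1.57 (SE 0.11) and Asns, asparagine synthetase, by 0.49 (SE 0.07). Sdhaf3, an assembly factor of succinate dehydrogenase, fell by 0.35 (SE 0.10, limma adjusted p = 0.021), and was at -0.30 in edgeR, which did not pass (adjusted p = 0.057). Dlx5 at -0.25, Dlx6 at -0.26, their antisense partner Dlx6os1 at -0.15 and Sem1 at -0.13 did not pass.

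**Figure D4:**
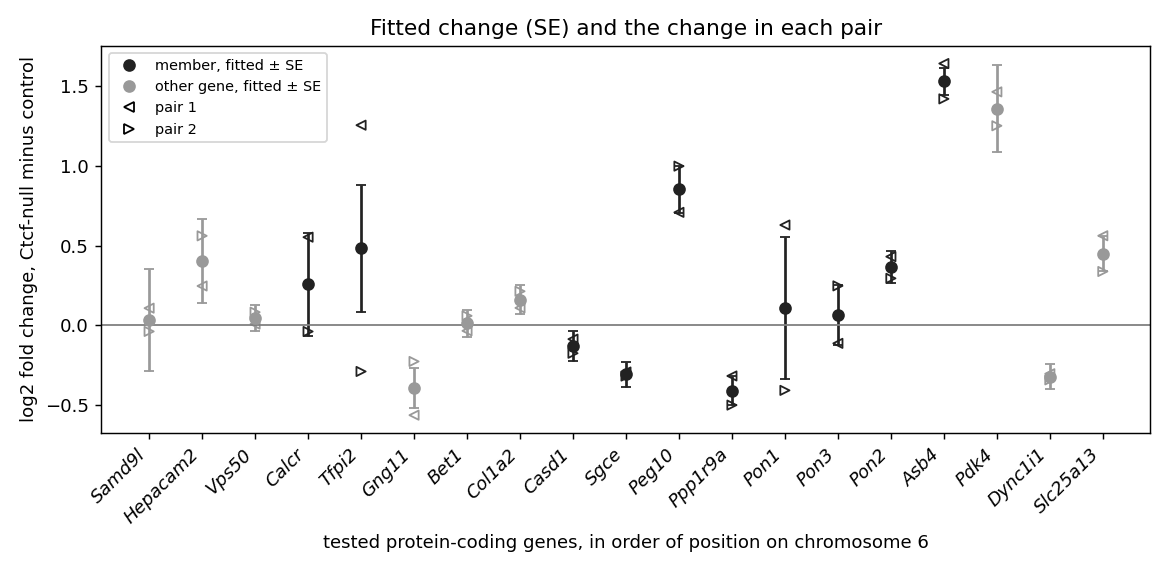
Log2 fold change of tested protein-coding genes from Samd9l to Slc25a13 in order of position, with the fitted value and its SE (filled) and the value of each pair (open triangles). Members are black and other genes grey. Asb4 at 1.53 and Pdk4 at 1.36 are adjacent, and Gng11, Casd1, Sgce, Ppp1r9a and Dync1i1 lie below 0 in both pairs.

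Within 1 Mb on either side the table listed 66 genes in all, including the 10 members. Of the 56 others 17 were tested, with 2 higher and 2 lower. Those not tested had at most 12.15 normalized counts in any library. Among them was Gm20714, a long non-coding RNA between Peg10 and Ppp1r9a, at 0.89 and 1.25 in controls, against 8.49 and 0 without Ctcf.

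Lists of partners and relatives of the members were counted against the same shares over all tested genes, 3.67% higher and 10.1% lower. In the dystrophin-glycoprotein complex, to which sarcoglycans belong, 2 of 14 tested genes rose and 0 fell, with a median of 0.07. Over all tested genes 13.7% were called in either direction, but only 3.67% as higher. With so few calls nothing further is read from this list. Dtna, dystrobrevin alpha, rose by 0.33 (SE 0.11, limma adjusted p = 0.048). Other sarcoglycans did not pass, with Sgcb at -0.08 and Sgcz at -0.49. Of the Asb family and its ligase 0 of 13 tested genes rose and 2 fell, Asb6 by 0.28 and the ligase adaptor Elob by 0.25 on the log2 scale. In edgeR they were lower by a similar size, -0.22 and -0.20, but did not pass (adjusted p = 0.13 and 0.061). The list's median was -0.13.

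Among genes derived from retrotransposons like Peg10, 1 of 17 tested rose and 2 fell, with a median of -0.20. Rtl8c fell from 570 and 1325 to 369 and 799 normalized counts, by 0.68 (SE 0.09), and Rtl8a fell by 0.31. edgeR gave -0.27 for Rtl8a, which missed the threshold (adjusted p = 0.066). Zcchc12 rose by 0.25. The Rtl8 genes are close copies, so their single values are uncertain. Of neurabin's paralog and protein phosphatase partners 0 of 9 rose and 2 fell, the catalytic subunits Ppp1ca and Ppp1cc, each by 0.30. A further catalytic subunit, Ppp1cb, was at 0.16 in limma (adjusted p = 0.10) and rose in edgeR, by 0.22 (adjusted p = 0.035). The median was -0.19. In the calcitonin receptor pathway 2 of 7 tested genes rose and 1 fell, with a median of 0.12. Calca, which encodes calcitonin and CGRP, rose by 1.84 (SE 0.34, limma adjusted p = 0.0011). Its counts went from 10.7 and 47.5 to 84.85 and 83.8, with 2.88 and 0.81 in the pairs. Ramp3 rose by 0.77 (SE 0.20) and Ramp2 fell by 0.40 (SE 0.11), and Ramp2 was at -0.33 in edgeR, which did not pass (adjusted p = 0.052). Of imprinted genes elsewhere 3 of 43 rose and 8 fell, with a median of -0.06. Dio3 (-1.32), Rasgrf1 (-0.77) and Commd1 (-0.58) fell, and Peg3 rose by 0.53.

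The genes whose centred pattern over the 4 libraries was nearest to Asb4 were Pde1c, a phosphodiesterase gene also on chromosome 6, Pde6c and Atp8b5. Their Euclidean distances on the log2 scale were 0.12, 0.31 and 0.31. Pde1c went from 390 and 265 normalized counts to 1189 and 736. Nearest to Sgce were Fez1, Cacng7 and Socs4, at 0.03 to 0.04, and nearest to Peg10 were Gsg1, Etnk2 and Pstpip2, at 0.09 to 0.10. These are the 3 nearest of 22158 genes over only 4 libraries.

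Bulk tissue cannot tell fewer cells of a type from less RNA per cell. Counts of called markers stand beside the shares over all tested genes, 3.67% higher and 10.1% lower in limma. In edgeR these shares were 4.8% and 7.13%. The telencephalic list held the most calls, and the other lists had few. Of 8 telencephalic markers 6 fell and 0 rose, and their summed level was 6186 and 20989.5 in controls, against 4415 and 13273 without Ctcf. Among 12 markers of hypothalamus and thalamus, 8 were tested, 1 rose and 1 fell. The list's median log2 fold change was 0.46, against -0.07 for all tested genes, and 5 of the 8 were higher in both pairs. In edgeR 2 rose, Agrp and Tcf7l2, and 1 fell. Agrp, a peptide gene of the hypothalamus, rose by 1.83 on the log2 scale (SE 0.34). It measured 12.45 and 11.3 normalized counts in controls 1 and 2, against 62.9 and 31.6 in their Ctcf-null counterparts. Lhx9 fell by 0.41. The annotated span of Agrp (105566698 to 105637393 on chromosome 8) overlaps the start of Ctcf (105636568), the targeted gene on the opposite strand. Reads in the stretch they share cannot be assigned to either gene, and how many there were is not known. The list's sum was 1465 and 1639 in controls, against 1495 and 1845 without Ctcf, while Rax and Hmx3 were at 0 to 3.75 in every library. Endothelial markers, 2 of 10 of which fell, summed to 3027 and 6130 against 2563 and 5461, and 1 of 6 pericyte markers fell. In edgeR 1 endothelial and 0 pericyte markers passed. Choroid plexus markers summed to 73411 and 25166 against 96102 and 36275, with 2 of 6 higher. Of 8 microglial markers 1 rose, and of 8 meningeal markers 1 rose. Red blood cell markers had 0 of 9 passing in limma and in edgeR, and 1 of the 6 trophoblast markers was abundant enough to test. The part of these cell types in the Asb4, Peg10 and Sgce values was not tested.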

How the data were processed

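The authors deposited 1 table of normalized read counts per gene and library, a signal not divided by gene length, per the file headers. STAR 2.5.3 and DESeq2 were named, with the mm10 build, per the submitters' processing notes. The sources used here do not name the gene counter or the annotation release. The log2 fold changes per pair that the authors deposited were recomputed from the counts with gaps of at most 0.008 and are not used otherwise. Within each library at least 99.9% of nonzero values were whole multiples of 1 read's value (tolerance 0.005), so reads were recovered. GENCODE M21 (GRCm38, the same assembly as mm10) gave positions and exon lengths for 99.1% of genes, and RefSeq the sequences.

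Genes passing filterByExpr (22158) entered limma 3.58.1 (R 4.3.3) with a mean-variance trend on log2(value + 1), with genotype and the pair as a block, in a two-sided test, Benjamini-Hochberg adjusted, threshold 0.05. A log-scale test was used because the table holds normalized values. The pair is part of the submitters' design, and same-numbered libraries correlated at r = 0.987 and 0.984 across genes, others at 0.887 to 0.903. edgeR 4.0.16 (quasi-likelihood, TMM, recovered reads) called 2643 genes and DESeq2 1.42.0 called 832, against 3041 in limma. The comparison of pair 2 with pair 1 was added after seeing the data. Other alternatives were the scaling, the pseudocount, the filter and left-out libraries. Controls differed from each other far beyond sampling noise, as did Ctcf-null libraries, so none was counted as a repeat. The 10 genes and all lists were chosen with earlier results of these data known. Named genes were the members, the neighbours, the up to 4 called genes of each list with the largest change, and the 3 nearest patterns each of Asb4, Sgce and Peg10. Further genes named as examples were chosen after their values were seen. The values of some single list genes are not reported here.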

Additional observations from a re-analysis of the deposited data

How the results depend on the processing

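With only 2 libraries per genotype and pairs that differed strongly, the calls rest on the pair block. In limma without the block 0 genes passed across the table (170 at an unadjusted p under 0.05), so 0 members, 0 neighbours and 0 genes of every other list passed. Leaving out 1 library without the block gave 0 to 2 calls across the table and 0 to 0 for the members and each list, where the lone library is assumed to vary like the other group. Pon2 then reversed to -0.29 without control 1 and -0.23 without Ctcf-null 2, and Gng11 to 0.40 without control 2 and 0.56 without Ctcf-null 1. In those fits the remaining libraries of the genotypes come unevenly from the pairs. Leaving out a whole pair gives a value with no test. DESeq2 with the block called 832 genes, 2 members, 2 neighbours, 1 gene of the dystrophin complex, 0 of the Asb family, 1 retrotransposon-derived gene, 0 of the neurabin list, 1 of the calcitonin pathway and 5 imprinted genes elsewhere. Upper-quartile scaling left 4 neighbours, 1 neurabin gene and 0 of the Asb family. The Asb family also had 0 calls in edgeR and with TMM, and 1 with a pseudocount of 0.5, which left 1 in the dystrophin complex. The cause was not tested. The other counts stayed within 1.5 times. Over the settings with the block Asb4 ranged from 1.53 to 1.64, Peg10 from 0.84 to 0.96 and Sgce from -0.31 to -0.20. Depth limits Calcr, Tfpi2 and Pon1, which had 6 to 56 reads per library.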
